A study of Homo sapiens with 6 samples.

Results

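The BTG and TOB genes chosen here were BTG1, BTG2, BTG3, TOB1 and TOB2. They are 5 of the 19776 genes named on the array and have 14 of its 54674 probe sets. BTG4, also on the array, was not among them and is described apart. A probe set is a group of short oligonucleotides that together report 1 transcript or a few. Probe sets were chosen by name and not by a threshold: all those whose platform symbol is one of the 5 genes, plus 201235_s_at and 201236_s_at. The family itself was selected from earlier results on the same difference between CompE and DMSO. The last pair of probe sets is known to measure BTG2 but is not listed in the annotation used here, and that name was not checked against probe sequences. BTG1 had 3 probe sets, BTG2 2, BTG3 4, TOB1 2 and TOB2 3. The cells were LS174T, a mucin-producing human colon adenocarcinoma line. Triplicate cultures received the vehicle DMSO (3 arrays) or CompE at 250 nM (3 arrays), both for 48 h, so that both groups share the same line and culture medium. The labels give only the abbreviation CompE, which usually stands for Compound E. That compound inhibits gamma-secretase, the enzyme whose cut sets free the active fragment of Notch receptors. As a single line and a single dose and time, the arrays speak for these cultures only.

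The BTG and TOB proteins share a domain that binds the CNOT7 and CNOT8 nucleases of the CCR4-NOT complex, which shortens the poly(A) tails of mRNAs. Tail shortening leads to mRNA decay, and forced expression of these proteins slows proliferation in many cell types, hence the name antiproliferative family. BTG1 and BTG2 also bind the arginine methyltransferase PRMT1, whereas TOB1 and TOB2 carry a longer tail that binds the poly(A)-binding protein PABPC1. BTG2 is induced by p53 and by growth factors, and marks progenitors that leave the cycle to differentiate.

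The sequences just upstream of BTG2 and of BTG1 are shown because BTG2 was the gene of the family whose level differed most between the groups, and BTG1 is its close relative. Each is the 250 bases before the gene's start, written 5' to 3' on the gene's strand, from RefSeq on build GRCh38.p14. The stretch of BTG2 is chr1:203305269-203305518 on the plus strand, and that of BTG1 is chr12:92145847-92146096 on the minus strand. Capitals mark matches on either strand to promoter elements: TATAAA is the TATA box, CCAAT the box of that name, GGGCGG the GC box, and TGACG the core of the cAMP response element.
BTG2: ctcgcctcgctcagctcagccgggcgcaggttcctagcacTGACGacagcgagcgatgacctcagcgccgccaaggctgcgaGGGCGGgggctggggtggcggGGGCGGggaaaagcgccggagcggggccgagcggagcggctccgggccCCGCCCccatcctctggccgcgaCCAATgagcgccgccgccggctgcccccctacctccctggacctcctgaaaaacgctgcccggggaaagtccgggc
BTG1: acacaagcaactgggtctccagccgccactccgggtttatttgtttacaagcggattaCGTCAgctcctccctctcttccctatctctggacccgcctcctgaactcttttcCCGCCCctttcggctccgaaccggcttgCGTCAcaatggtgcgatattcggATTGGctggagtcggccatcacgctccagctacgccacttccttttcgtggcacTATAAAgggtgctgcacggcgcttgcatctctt
BTG2 held no TATAAA in this stretch, whereas BTG1 held 1 match, beginning 33 bases before its start. TATAAA was found in 10.7% of the 35116 upstream stretches of this length in the table. BTG2 held 3 matches to GGGCGG (42.6% of all stretches held at least 1) and BTG1 held 1. Each held 1 CCAAT (32.0% of all stretches). TGACG occurred once upstream of BTG2 and at 2 places upstream of BTG1 (21.2% of all stretches). The GC content of the stretch was 74.8% for BTG2 and 56.4% for BTG1. Letters of the core bound by RBPJ, the DNA-binding partner of Notch, were also searched. TGGGAA was absent on both strands from the upstream stretches of BTG1, BTG2 and BTG3, and was present once in that of TOB2 and in 1 of the 2 of TOB1 (20.8% of all stretches). Downstream of the BTG2 start, the same letters lie on 1 of the strands at bases 47 to 52. That place falls within the window of the divergent transcript BTG2-DT (24.0% of all windows of 300 bases held the letters). For the other genes only 50 bases downstream were searched. CACGTG, a form of the E-box, was absent from the stretches of all 5 genes (6.34% of all stretches held it). Other forms of the E-box were not searched. These matches describe letters and not sites of binding.

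The 6 arrays were alike in brightness, with medians of 36.9 to 38.6. Across the 32767 probe sets past the filter on dim values, r was 0.987 to 0.988 within a group. All 10 markers of colon epithelium lay above background in both groups. Limma called 2 of them, beside 3.84% of all genes. MUC2, the main mucin gene of goblet cells, rose 2.07-fold from a mean of 481 to 993 (limma adjusted p = 0.00378, n = 3 each). CDX2, an intestinal transcription factor gene, rose 1.35-fold (limma adjusted p = 0.0228), a call lost in all 6 fits with 1 array left out (highest adjusted p 0.0987). The part of these changes in the difference of BTG2 was not tested. CDH17, another of the 10 markers, went the other way and fell 1.24-fold, with no overlap between the groups. It was not called (limma adjusted p = 0.0510), but was called under some alternatives, among them quantile normalization. VIL1, which encodes the brush border protein villin, lay between 2123 and 2270. Of 9 measured markers of leukocytes, fibroblasts and endothelium, 3 lay above background in both groups (COL1A1, COL1A2 and PECAM1) and CD14 did so in DMSO only (means 56.1 and 44.4). The summed intensity of the 9 was 474 to 568 in DMSO and 465 to 516 in CompE. PTPRC, the defining gene of leukocytes, did not exceed 16.3 on any array. Background here is an intensity of 45.7, the 95th percentile over 27 control probe sets for Bacillus transcripts. HES1, a repressor gene induced by Notch, fell 2.81-fold, and ATOH1, the secretory lineage factor gene, rose 6.13-fold (limma adjusted p = 0.00405 and 0.00220, n = 3 each). Control transcripts added at hybridisation were 0.14 log2 units brighter in CompE than in DMSO. Centring each array on them moved the median difference of all probe sets from 0.01 to -0.13.

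BTG2 was about 2-fold brighter in CompE on both of its probe sets. Its brighter probe set, 201236_s_at, read 511, 443 and 496 in the DMSO cultures and 899.8, 892 and 884 in the CompE cultures. Every CompE array lay above every DMSO array, and the CompE values were the more closely spaced of the groups. The means were 483 ± 35.4 and 892 ± 8.06 (SD, n = 3 each), a 1.85-fold difference with a 95% interval of 1.63 to 2.09 from the limma fit. On the log2 scale this was 0.89 ± 0.07 (SE). Its dimmer probe set, 201235_s_at, read 68.6, 62.4 and 54.5 in DMSO and 126, 124 and 131 in CompE. Here too the groups did not overlap, and the lowest DMSO array was a different culture (replicate 3) from that of the brighter probe set (replicate 2). The difference was 2.07-fold, with an interval of 1.75 to 2.44 (log2 1.05 ± 0.10 SE). Both probe sets lay above background in both groups, the dimmer one narrowly so in DMSO at a mean of 61.8. By size of difference, the dimmer probe set ranked 124 and the brighter one 211 of the 32767 probe sets, counted from the largest increase. These values were known when the family was chosen, so they are a description and carry no p-value.

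**Figure D1:**
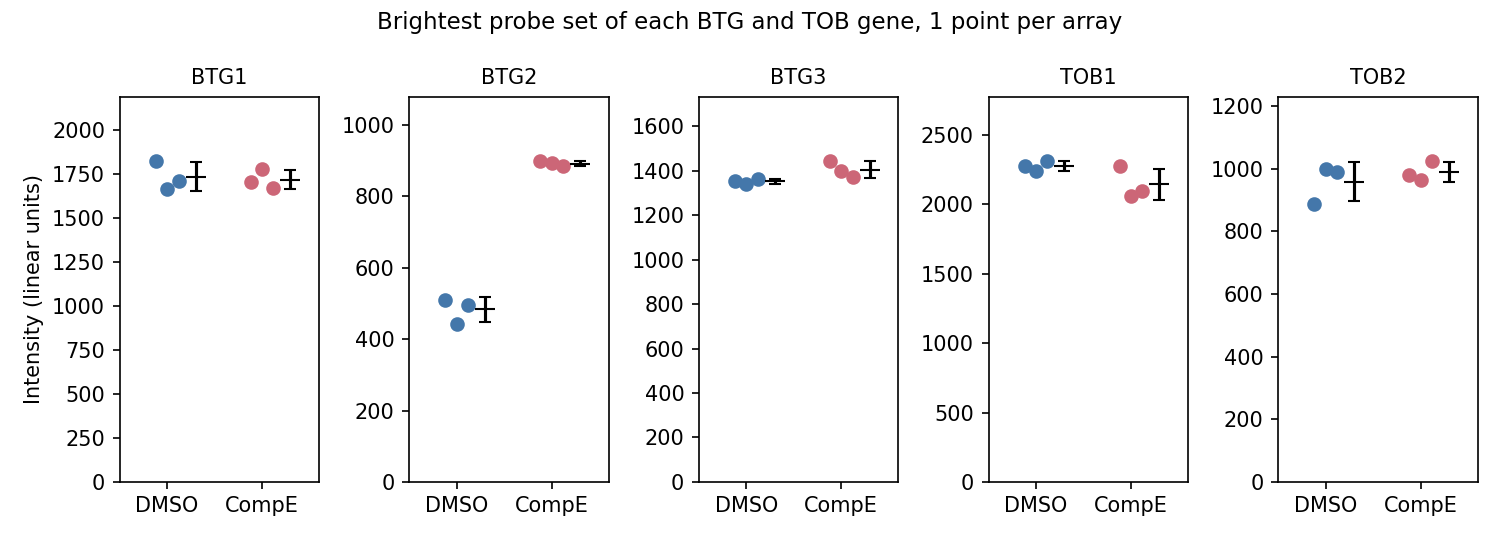
Intensity (linear units, axes from 0) of the brightest probe set of each gene in the 3 DMSO arrays (blue) and the 3 CompE arrays (red); black marks give the mean ± SD. BTG2 has a mean of 483 in DMSO and 892 in CompE with no overlap, whereas the points of BTG1, TOB1 and TOB2 overlap between the groups.

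BTG1, the closest relative of BTG2 in the family and a gene recurrently mutated in B cell lymphoma, showed no comparable difference. Its brightest probe set, 200921_s_at, read 1826, 1666 and 1711 in DMSO and 1706, 1779 and 1672 in CompE. The groups overlapped throughout their range, with a fold of 0.991 and a 95% interval of 0.889 to 1.11. A second probe set, 200920_s_at, read 1155, 1099.7 and 955 in DMSO and 1014, 911 and 915 in CompE. There the CompE arrays sat in the lower part of the range but still overlapped with the DMSO arrays (log2 difference -0.17 ± 0.09 SE, interval -0.41 to 0.06). The remaining probe set, 1559975_at, lay between 13.4 and 28.3 on all arrays, below background, and did not pass the filter.

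BTG3, which encodes a more distant member of the BTG branch, was flat on its 2 bright probe sets. On 213134_x_at it read 1353, 1339 and 1365 in DMSO and 1445, 1399.9 and 1370.1 in CompE. The groups were separate here, although the lowest CompE array was close to the highest DMSO array, and the fold was 1.04 (interval 0.947 to 1.14). The suffix x of this probe set marks probes that can bind transcripts of other genes, so that its identity is less certain. The probe set 205548_s_at overlapped between the groups, with a fold of 1.02 (interval 0.911 to 1.15). The 2 dim probe sets of BTG3 went opposite ways and were less precise. On 215425_at the means were 131 ± 13.9 in DMSO and 114 ± 6.01 in CompE (n = 3 each; log2 difference -0.20 ± 0.10 SE). On 1556213_a_at they were 84.8 ± 24.2 and 104 ± 17.0 (n = 3 each; log2 difference 0.31 ± 0.23 SE). The groups overlapped on both.

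TOB1, whose protein was first described as a binding partner of the receptor ERBB2, was slightly dimmer in CompE on average. Its brighter probe set, 202704_at, read 2277, 2238 and 2315 in DMSO and 2275, 2062 and 2095 in CompE. CompE replicates 2 and 3 lay below all DMSO arrays and CompE replicate 1 lay among them. The fold was 0.941 with an interval of 0.844 to 1.05. The other probe set, 228834_at, averaged 41.4 ± 2.46 in DMSO and 35.6 ± 4.67 in CompE (n = 3 each), below background in both groups.

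TOB2, the relative of TOB1 with the same poly(A)-binding protein partner, did not separate the groups either. Its brightest probe set, 222243_s_at, read 889, 999.6 and 989 in DMSO and 980.0, 965 and 1026 in CompE. The lowest value was DMSO replicate 1, and the other DMSO arrays lay within the CompE range. The fold was 1.03 (interval 0.915 to 1.17). On 221496_s_at the means were 110 ± 15.5 and 103 ± 14.9 (n = 3 each), with overlap. On 234720_s_at all arrays lay between 12.1 and 38.7, below background, and it did not pass the filter.

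Across the family, 12 of the 14 probe sets passed the filter on dim values. Among those 12 and besides BTG2, the size of the difference reached at most 0.31 log2 units, on the dim BTG3 probe set 1556213_a_at. That value rested on single arrays, being 0.12 without DMSO replicate 1 and 0.53 without DMSO replicate 2. The pair that did not pass the filter gave 0.51 (TOB2 234720_s_at) and -0.33 (BTG1 1559975_at), from intensities below background. With 1 array left out, BTG2 ranged from 0.83 to 0.93 on its brighter and from 0.96 to 1.13 on its dimmer probe set. Several of the small differences turned sign in such fits. Without DMSO replicate 1 they were 0.03 for BTG1 200921_s_at, -0.0065 for TOB2 222243_s_at and 0.0093 for TOB2 221496_s_at. Without DMSO replicate 3 the value was -0.0061 for BTG3 205548_s_at, and without CompE replicate 3 it was 0.0072 for BTG1 200921_s_at. The brightest probe sets of BTG1, BTG3, TOB1 and TOB2 gave intervals that lay between a 1.18-fold decrease and a 1.17-fold increase. None of these intervals met that of BTG2, which is a description only, since the family was chosen with the BTG2 values known. Under centring on the hybridisation controls the 5 brightest probe sets moved down together, to 0.74 for BTG2, -0.16 for BTG1, -0.088 for BTG3, -0.23 for TOB1 and -0.095 for TOB2, so that the sign for BTG3 and TOB2 flips. The second bright BTG3 probe set, 205548_s_at, went from 0.03 to -0.11. Before centring, the differences of BTG1, BTG3, TOB1 and TOB2 (-0.01, 0.05, -0.09 and 0.05) were smaller than the shift of the controls (0.14), whose part in them was not tested. The position of BTG2 above its relatives was kept under that centring, as it subtracts 1 constant per array. Levels of different genes were not ranked, because the intensity of a probe set also depends on its own probes.

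**Figure D2:**
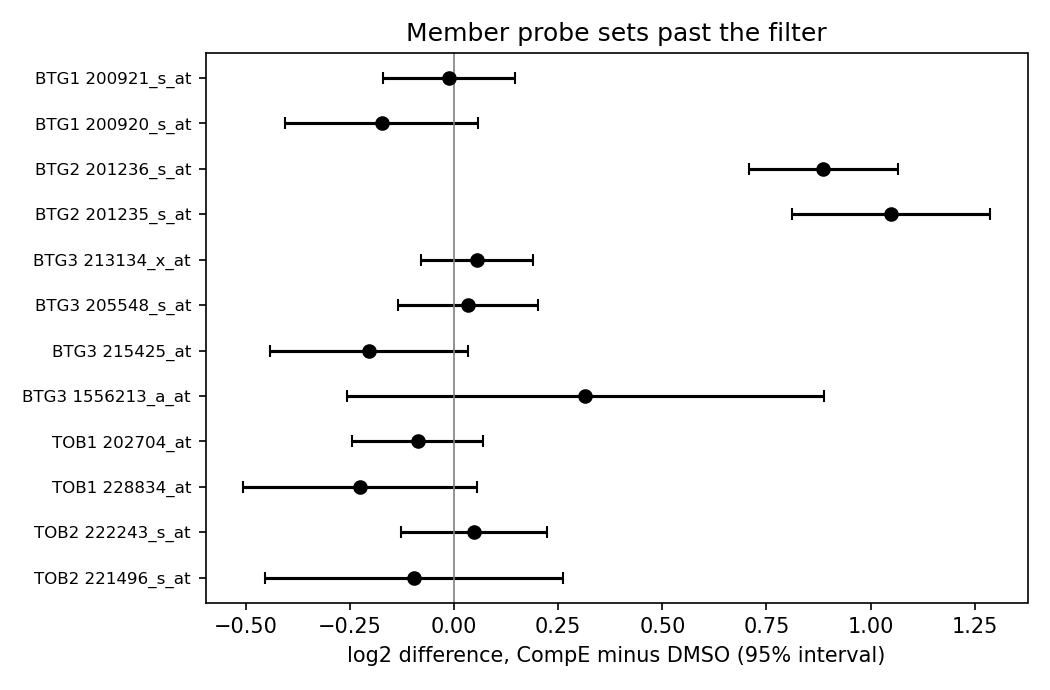
The log2 difference (CompE minus DMSO) of the 12 probe sets past the filter, with 95% intervals from the limma fit on 3 against 3 arrays. Both BTG2 probe sets lie at 0.89 and 1.05, and the interval of each of the other 10 includes 0.

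In the limma fit over all 32767 probe sets, 995 were called at an adjusted p under 0.05, which is 3.04% (1.93% higher in CompE and 1.1% lower). Of the 12 family probe sets tested, 2 were called higher and 0 lower, both of them BTG2, and the 95% interval of each of the other 10 included 0. Groups were separate with CompE above for 3 of the 12, against 15.9% of all probe sets, and with CompE below for 0, against 12.5%. The count of 2 became 1 without DMSO replicate 2, without CompE replicate 1 or with no filter on dim probe sets, in each case because 201235_s_at was not called, and 0 with the replicate number as a block. Since the family was chosen with this contrast in view, nothing is read from these counts. Centred on the hybridisation controls, 356 probe sets were higher and 1441 lower, so that the share of higher calls went from 63.6% to 19.8%. With any 1 array left out, the count of all calls dropped to between 148 and 288.

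The measured non-coding transcripts that start beside the family genes were dim. BTG2-DT, a non-coding RNA that starts 194 bases from BTG2 on the opposite strand, lay between 19.5 and 36.5 on all arrays, below background, with overlap between the groups. BTG1-DT, the corresponding transcript of BTG1, lay between 20.8 and 30.7. TOB1-AS1, which runs opposite to TOB1, read 36.8, 27.8 and 37.4 in DMSO, all below background, and 47.1, 37.2 and 59.7 in CompE. It was not called (limma adjusted p = 0.263, n = 3 each). FMOD, the nearest protein-coding gene with a tested probe set on one side of BTG2 and the gene of a matrix proteoglycan, averaged 85.2 in DMSO and 103 in CompE (adjusted p = 0.210). CHI3L1, a chitinase-like gene on the other side, stayed near 34 in both groups, below background. None of the 10 nearest neighbours of the 5 genes was called by limma, beside 3.84% of all genes, so nothing is read from that count. These were the nearest protein-coding genes with a tested probe set, at 12.9 kb (PHF5A, beside TOB2) to 1710 kb (USP25, beside BTG3). Closer genes without a tested probe set were not covered. SPAG9, a neighbour of TOB1, was called under 4 of 16 alternatives. These transcripts were chosen after the values of the family were known. BTG4, a family member of oocytes, had 1 of its 2 probe sets past the filter, with means of 47.2 in DMSO and 35.4 in CompE, the latter below background. The groups did not overlap there (log2 difference -0.42, interval -0.67 to -0.16), and it was not called. The other BTG4 probe set, 1554362_at, went the opposite way (0.50), with overlap and below background in both groups.

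The genes whose pattern over the 6 arrays lay nearest to that of BTG2 were SPNS2, PBXIP1 and SOX4. Likeness was the root mean square difference between log2 values, each gene centred on its own mean, and it was 0.05, 0.05 and 0.06 log2 units for these genes against a median of 0.46 over 14308 genes. SPNS2, which encodes a transporter of sphingosine 1-phosphate, had a mean of 329 in DMSO and 588 in CompE. PBXIP1, which encodes a protein that binds PBX homeodomain factors, had means of 178 and 321. SOX4, a transcription factor gene, had means of 3549 and 6193. Matching the pattern of BTG2 fixes that these genes were brighter in CompE, so the values are a description with no test. In all, 30 genes lay within 0.1 log2 units of BTG2. The other members had far more such near genes, between 3329 for TOB2 and 5437 for BTG3, as flat patterns are common. TARDBP, an RNA-binding protein gene, was nearest to BTG3 (0.0080 log2 units), with BTBD1 and DYNC1LI1 next. C2orf69, ICMT and PPP2R2A were nearest to BTG1, FAM83B, MRFAP1L2 and RILPL2 to TOB1, and NR2F1, PCNA and PFDN4 to TOB2.

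**Figure D3:**
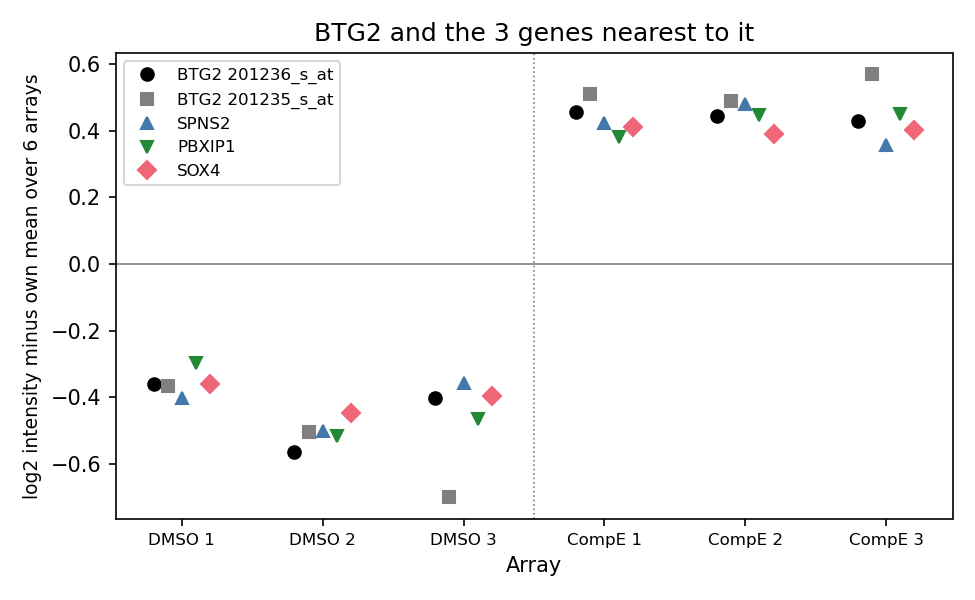
Log2 intensity of both BTG2 probe sets and of SPNS2, PBXIP1 and SOX4 in each array, centred on each probe set's own mean over the 6 arrays; points are shifted sideways for legibility. All 5 lie below 0 in the 3 DMSO arrays and above 0 in the 3 CompE arrays.

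No tested partner through which the family acts was called at the reported settings. In lists this short a count of 0 lies near the share of all genes called, so nothing is read from it. Of 11 genes of the CCR4-NOT complex tested, limma called 0, beside 3.84% of all 14309 genes (2.54% higher and 1.31% lower). At an unadjusted p under 0.05 in the same fit, 1 was positive and 0 negative. The share of all genes at that unadjusted threshold was not counted, so nothing is read from such counts in the partner lists. The median log2 difference was 0.02, and 0.02 over all genes. CNOT8, one of the nucleases that BTG and TOB proteins bind, came closest, at 1033 ± 36.6 in DMSO and 1348 ± 92.2 in CompE (1.30-fold, n = 3 each, limma adjusted p = 0.0586). Its groups did not overlap, and its 2 other probe sets gave log2 differences of 0.20 and 0.31. CNOT8 was called under 5 of 16 alternatives. The adjusted p was 0.0321 with 1 probe set per gene, 0.0430 at log2(value + 16), 0.0154 with the lowest 60% left out, 0.000396 with an intensity trend, and 8.56e-13 among the least variable probe sets. Over the other 11 it lay between 0.0509 and 0.213. CNOT7, the other such nuclease, differed by 0.09 (limma adjusted p = 0.495), with 0.0017 to 0.32 on its 3 other probe sets. CNOT1, the scaffold of the complex, differed by -0.02 (adjusted p = 0.939), and its 2 other probe sets gave 0.087 and 0.090.

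Of 9 poly(A) partners tested, limma called 0, beside 3.84% of all genes (median 0.14). At an unadjusted p under 0.05 in the same fit, 3 were positive and 1 negative. PAN2, the catalytic subunit of another deadenylase, was nearest at 0.24 (adjusted p = 0.142). With an intensity trend PAN2 (adjusted p = 0.0496) and CPEB4, a gene of cytoplasmic polyadenylation, were called, and among the least variable probe sets PAN2, PAN3 and TNKS1BP1 were. PABPC1, the partner of TOB proteins on the poly(A) tail, differed by -0.07 on 215157_x_at (adjusted p = 0.652). The suffix x makes its identity less certain, and the other PABPC1 probe set gave 0.28, of the opposite sign. Of 9 nuclear and signalling partners, limma also called 0, beside the same 3.84% (median 0.01). At an unadjusted p under 0.05, 1 was positive and 1 negative. SMAD4, the common mediator of TGF-beta and BMP signals, had the smallest p, with a difference of 0.17 (adjusted p = 0.235). Its 3 other probe sets gave -0.18 to 0.11. Among the least variable probe sets SMAD4, SMAD5 and RPS6KA1 were called. PRMT1, the methyltransferase bound by BTG1 and BTG2, differed by -0.09 (adjusted p = 0.439), and ERBB2 by -0.07 (adjusted p = 0.626). The other probe set of PRMT1 gave 0.05 and that of ERBB2 gave -0.31.

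**Figure D4:**
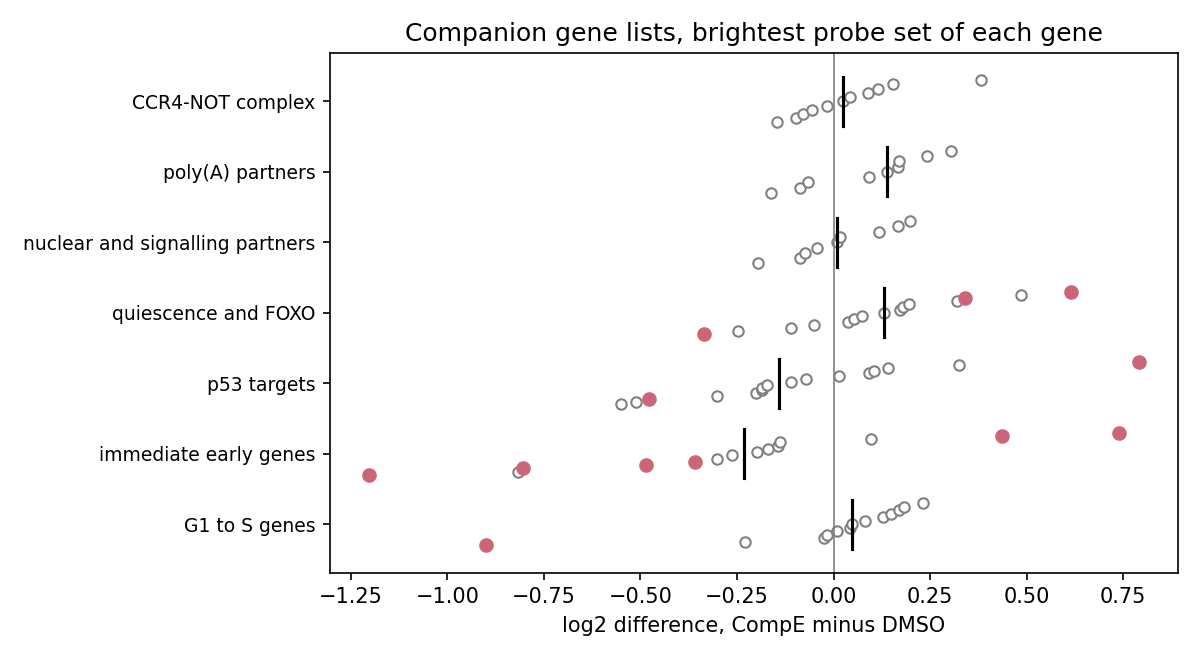
Log2 difference (CompE minus DMSO) of each tested gene in 7 companion lists; filled red points were called at an adjusted p under 0.05, open points were not, and the vertical black bar is the median of the list. The partner lists at the top hold no called gene, and the immediate early genes spread widest, from -1.20 to 0.74.

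Genes linked to cell cycle exit changed in part. Of 15 genes of the quiescence and FOXO list tested, 2 rose and 1 fell (median 0.13), beside 2.54% of all genes higher and 1.31% lower. The same background applies to the p53, immediate early and G1 to S genes. CCNG2, an atypical cyclin gene that FOXO factors induce, rose 1.53-fold from 1099 ± 40.8 to 1683 ± 41.8 (n = 3 each, limma adjusted p = 0.0102). The 4 other probe sets of CCNG2 gave log2 differences of 0.02 to 0.87. FOXO3, a transcription factor gene of this group, rose 1.27-fold (adjusted p = 0.0449), with 0.04 to 0.12 on its 3 other probe sets. FOXO1 fell by 0.34 log2 units (adjusted p = 0.0475). CDKN1B, the gene of the CDK inhibitor p27, differed by 0.19 (adjusted p = 0.159). The calls of FOXO3 and FOXO1 were lost in all 6 fits with 1 array left out (the highest adjusted p was 0.149 for each, without DMSO replicate 2 and DMSO replicate 3). That of CCNG2 was lost without any of the DMSO arrays or CompE replicate 1 (highest 0.0677).

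Among p53 targets, the class to which BTG2 belongs, 1 of 16 tested rose, 1 fell and 14 were not called (median -0.14). TP53INP1, a p53-induced gene linked to cell death and autophagy, rose 1.73-fold from 196 ± 21.3 to 339 ± 21.9 (n = 3 each, limma adjusted p = 0.0213). FAS, a death receptor gene, fell by 0.48 log2 units, from 355 ± 19.7 to 255 ± 6.68 (adjusted p = 0.0270). Its 3 other probe sets gave -0.57 to -0.32. CDKN1A, the gene of the CDK inhibitor p21, differed by -0.11 (adjusted p = 0.633), and MDM2, the feedback inhibitor of p53, by -0.17 (adjusted p = 0.405). The 6 other probe sets of MDM2 gave -0.49 to 0.16. The call of TP53INP1 was lost without any array but DMSO replicate 1 (highest adjusted p 0.0952, without DMSO replicate 2), and that of FAS with each array left out (highest 0.104, without DMSO replicate 3).

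Immediate early genes, induced by growth factors as BTG2 is, moved in both directions. Of 14 tested, 2 rose, 4 fell and 8 were not called (median -0.23). JUN, an AP-1 subunit gene, rose 1.67-fold from 873 ± 39.6 to 1455 ± 31.6 on 201464_x_at (n = 3 each, limma adjusted p = 0.00659). The suffix x makes the identity of that probe set less certain, and the 3 other probe sets of JUN gave 0.50 to 1.05. FOS, its partner in AP-1, fell by 1.20 log2 units, from 140 ± 18.8 to 60.5 ± 4.51 (n = 3 each, adjusted p = 0.00974). IER3, a stress-induced survival gene, fell by 0.80 (adjusted p = 0.0200). The other calls, named after their values were seen, were DUSP1 (0.44, adjusted p = 0.0425), FOSL1 (-0.49, adjusted p = 0.0308) and KLF10 (-0.36, adjusted p = 0.0466). All 3 calls were lost in each of the 6 fits with 1 array left out (highest adjusted p 0.131, 0.121 and 0.145), and the other probe set of DUSP1 gave 0.05. EGR1, which is induced together with BTG2 by many stimuli, differed by -0.20 (adjusted p = 0.673), with -0.43 and 0.15 on its 2 other probe sets. The call of JUN was lost without CompE replicate 1 (adjusted p = 0.0515), that of FOS without CompE replicate 1 or DMSO replicate 2 (highest 0.0644), and that of IER3 without any array but CompE replicate 3 (highest 0.0855).

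Of 13 G1 to S genes, 0 rose and 1 fell (median 0.05). CCND2, a D-type cyclin gene, fell by 0.90 log2 units on its brightest probe set, from 119 ± 10.2 to 63.9 ± 4.64 (n = 3 each, limma adjusted p = 0.0122). Its 2 other probe sets had differences of the opposite sign (0.12 and 0.33). CCND1, the cyclin gene that BTG2 is known to repress, differed by -0.02 (adjusted p = 0.925), and E2F1 by 0.01 (adjusted p = 0.965). The other probe set of CCND1 gave -0.18 and that of E2F1 gave 0.12. The call of CCND2 was lost without DMSO replicate 1 or 3 or CompE replicate 1 or 3 (highest adjusted p 0.0658). Over the 7 lists together 12 of 87 genes (13.8%) were called, beside 3.84% of all genes, and between 0 (without CompE replicate 1) and 5 with 1 array left out. As the lists were chosen with earlier results known, nothing is read from that share.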

How the data were processed

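RNA of 6 LS174T cultures was amplified and labelled from the 3' end and hybridised to Affymetrix Human U133 Plus 2.0 arrays, per the labels' protocols. The deposited values are linear probe set intensities that the authors normalized between arrays with dChip, per the series design text; for its version and probe model the sources used here give nothing. Values were floored at 1 before log2. The 62 control probe sets and the lowest 40% by mean log2 (intensity below 24.4) were left out. CompE was compared with DMSO by limma 3.58.1 in R 4.3.3, two-sided, per probe set, with Benjamini-Hochberg adjustment over 32767 probe sets. The script was tested on simulated data. Probe sets with 1 gene in the platform annotation of 2016 numbered 41091; 1800 had several and 11721 were not listed. In lists, the brightest probe set stood for its gene. Named were all family probe sets, up to 3 called genes per list by smallest p (or the one with the smallest p), HES1, ATOH1 and 3 nearest patterns per member. Partner genes named for their role (CNOT7, CNOT1, PABPC1, PRMT1, ERBB2, CDKN1B, CDKN1A, MDM2, EGR1, CCND1, E2F1), VIL1 and genes called only under an alternative fall outside that rule. The members and lists were chosen with earlier results of these data known. Precision is limited by the number of arrays, with a median standard error of 0.10 log2 units. Alternatives covered filters, scaling, offset, feature, variance model, replicate block and arrays left out. Fold changes can understate changes of dim genes.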

Additional observations from a re-analysis of the deposited data

How the results depend on the processing

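The counts of called probe sets and of the 7 companion lists depended on the setting, and the small differences within the family moved with the scaling and with single arrays. Called probe sets (all, higher, lower, and companion genes; 995, 633, 362 and 12 as reported) became 130, 91, 39 and 0 with no filter on dim probe sets. They were 2604, 1546, 1058 and 19 with the lowest 60% left out, and 4587, 2670, 1917 and 28 among the 10896 least variable probe sets, a selection that used the same spread as the test. With an intensity trend in eBayes they were 3444, 1989, 1455 and 26. With 1 array left out the ranges were 148 to 288, 100 to 195, 47 to 100 and 0 to 5. Centring on the hybridisation controls gave 1797, 356 and 1441 probe sets, and log2 differences of 0.74 (BTG2), -0.16 (BTG1), -0.088 (BTG3), -0.23 (TOB1) and -0.095 (TOB2). The cause of that shift was not tested. No pairing by replicate number was seen: deviations of same-numbered arrays correlated at 0.02, -0.08 and -0.02, and 1 of 6 arrays correlated best with its own number. With so few arrays these values cannot show that the cultures were unpaired. With the replicate block 0 probe sets were called (0 higher, 0 lower, 0 companion genes), with fewer residual degrees of freedom. Over 16 alternatives the brighter BTG2 probe set stayed between 0.74 and 0.93. Its dimmer one ranged from 0.89 to 1.13 in 14. The lowest value of the dimmer one came from log2(value + 16). For 33 genes with a test (no family members), 513 values of 1 gene under 1 setting were compared. Only the 16 genes called as reported could lose a call, and 100 of their values passed the threshold no longer. The remaining genes could only gain a call, and 10 of their values did. None of the 16 called genes turned sign, whereas 11 values of E2F1, CCND1, CNOT7 and CNOT1 did, none of them called. E2F1 gave -0.0067 with quantile normalization, -0.0054 centred on the median and -0.13 centred on the hybridisation controls, where CNOT7 gave -0.053. With 1 array left out E2F1 ranged from -0.041 to 0.051, CCND1 from -0.065 to 0.015 and CNOT1 from -0.076 to 0.072. Dim probe sets near background limit what can be said of BTG4, BTG2-DT and TOB1-AS1.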
